A study of Homo sapiens with 4 samples.

Results

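Immediate early genes and the FOS and JUN genes of the transcription factor AP-1 were examined in MM134 cells, a model of invasive lobular breast cancer that expresses the estrogen receptor. The genes were chosen as a fixed list of 32 symbols, and all 32 were found among the 60675 genes of the tables. Earlier results of these data were known at that choice, so list shares set beside those of all genes are descriptive only. Cells of 1 line carried HER2 WT, the wild-type form of the growth factor receptor HER2, and those of the other HER2 L755S, with a substitution in the kinase domain. RNA was sequenced in 4 libraries, 2 per line. All 4 came from cells kept without estrogen for 7 days in medium free of phenol red, its serum (5%) charcoal-stripped, once they had reached 70% confluence. There was no group with estrogen. The sources used here do not say how HER2 was introduced or altered, whether a line is 1 clone, or whether libraries of 1 line are separate cultures. Spread between libraries, on which all p-values below rest, may thus be technical. What the replicate number stands for is not given either, so the libraries are called number 1 and number 2 of their line, as in HER2 WT 1. Wherever a pair of values is given for a number, HER2 WT comes first and HER2 L755S second.

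Immediate early genes are transcribed within minutes of a stimulus, such as a growth factor acting through HER2 and the ERK kinases, and need no new protein for it. Serum response factor (SRF) with its ERK-activated partners binds CArG boxes in their promoters, and CREB binds cAMP response elements. FOS and JUN proteins pair to form AP-1, the EGR, NR4A and KLF proteins are further transcription factors, and DUSP1 and ZFP36 belong to the feedback that shuts the response off. The RNAs are mostly short-lived, so their level follows recent signalling, and they are also known to respond to changes of medium and to the handling of cells.

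Promoters of EGR1, FOS and DUSP1 are printed here because these genes are among the 6 whose difference between the replicate numbers passed the test with and without a correction for base composition (below). The sequences are from RefSeq on GRCh38.p14, run 5′ to 3′ on the gene's strand, and lie before the annotated start. Capitals mark CArG boxes and the core TGACGT of the cAMP response element, written ACGTCA where it lies on the other strand.
EGR1, chr5:138465229-138465478, plus strand: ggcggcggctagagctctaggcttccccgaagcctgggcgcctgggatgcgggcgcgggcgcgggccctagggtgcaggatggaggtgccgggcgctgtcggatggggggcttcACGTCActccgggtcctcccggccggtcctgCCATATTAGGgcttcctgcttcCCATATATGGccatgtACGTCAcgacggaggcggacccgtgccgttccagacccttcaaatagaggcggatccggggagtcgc
FOS, chr14:75278578-75278773, plus strand: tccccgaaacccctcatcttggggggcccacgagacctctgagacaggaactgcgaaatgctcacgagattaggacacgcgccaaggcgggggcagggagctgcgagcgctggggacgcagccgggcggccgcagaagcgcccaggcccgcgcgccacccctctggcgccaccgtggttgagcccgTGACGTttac
DUSP1, chr5:172771196-172771445, minus strand: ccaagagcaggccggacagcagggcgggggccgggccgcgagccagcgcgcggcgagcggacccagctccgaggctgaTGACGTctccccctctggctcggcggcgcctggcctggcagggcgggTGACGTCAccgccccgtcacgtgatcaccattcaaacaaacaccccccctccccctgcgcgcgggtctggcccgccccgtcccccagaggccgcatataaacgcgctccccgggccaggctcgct
The EGR1 window held CArG boxes starting 105 and 83 bases before the start, and core sites at 136 and 67 bases. The FOS stretch, which was cut where the GENCODE 29 gene begins and so ends short of the RefSeq start, held 1 core site, 64 bases before that RefSeq start, and the DUSP1 window held the full site TGACGTCA at 125 bases and a core site at 172 bases. Of the 32 genes, 26 had a window of 250 bases before a start in the RefSeq table. Among these, 3 (11.54%: EGR1, EGR2 and SRF) held a CArG box on either strand, against 1.443% of 27305 genes. The core site was in 12 of 26 (46.15%), against 8.617% of all genes, and the full site, which contains the core, in 4 (15.38%: DUSP1, JUND, MAFF and ZFP36L1), against 2.033%. The AP-1 site TGAGTCA was in 0 of 26 windows and in 5.186% of all genes. The windows were not matched for base composition, and these matches are a description of letters only. Sites outside the windows, or differing from the exact patterns searched, were not counted, so a gene without a match may still have such sites.

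The total expected count per library ran from 27423247 to 31088422. Luminal epithelial markers were all detected in all 4 libraries, with a summed level of 3736 to 4836 TPM (a transcript level scaled for length and for the library total), against at most 0.44 TPM for basal epithelial, 1.08 TPM for leukocyte and 0.21 TPM for endothelial markers. The libraries of 1 number resembled each other in features not tied to HER2. Mitochondrial transcripts took 4.40% and 4.03% of the counts in number 1, against 8.83% and 13.5% in number 2. The 6 fibroblast markers summed to 32.73 and 37.62 TPM in number 1 and to 18.95 and 14.83 TPM in number 2. COL1A1 was at 100 and 114 CPM (counts relative to library size) in number 1 and at 51.0 and 58.4 CPM in number 2, while COL3A1 was at most 0.031 CPM in number 1 and at least 1.25 CPM in number 2. The part of these features in the results below was not tested.

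Within these estrogen-deprived cells the immediate early genes were expressed at very different levels. IER2, a nuclear protein gene of the early response, and JUNB, an AP-1 subunit, had the highest mean levels over the 4 libraries, 69.1 and 61.9 TPM. MCL1, an inhibitor of apoptosis, followed with 49.4 TPM, and then JUND with 48.2, FOS with 42.9, EGR1 with 41.6, DUSP2 with 40.9 and JUN with 31.4 TPM. The order of these 8 was not firm, because most of them spanned ranges far wider than the gaps between their means. EGR1 was at 44.64 and 107.36 TPM in number 1 and at 2.46 and 11.98 TPM in number 2. IER2 ran from 18.40 to 122.77 TPM, and JUNB from 12.92 to 113.64 TPM. MCL1 was the steady one of the group, at 46.09 to 52.17 TPM. At the low end, the nuclear receptor NR4A3 averaged 0.08 TPM. The AP-1 subunit FOSL1 and the zinc finger gene EGR4 had 2 to 11 and 5 to 17 counts per library, too few to be tested, which left 30 tested genes. The plot of CPM by library shows the spread of all 32.

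**Figure D1:**
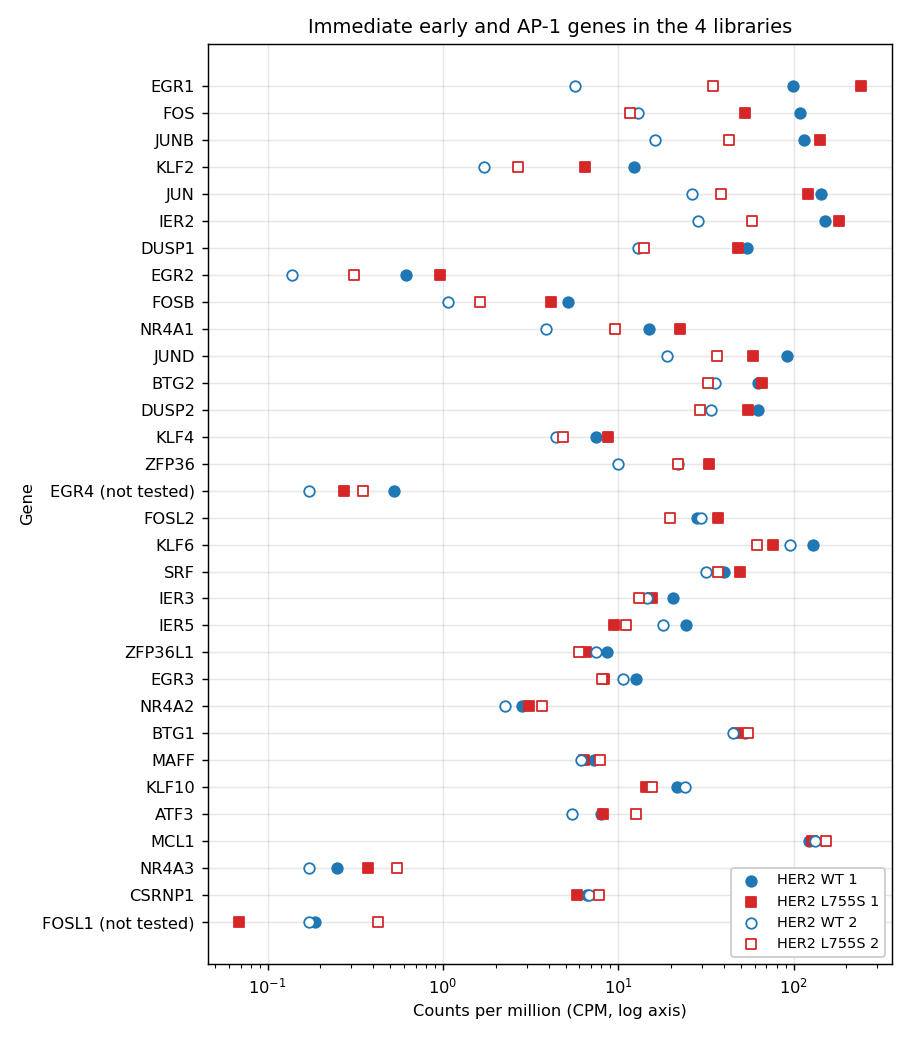
Level of each of the 32 genes in each library, in CPM on a log axis, ordered by the difference between the replicate numbers. Filled symbols are number 1 and open symbols number 2, circles are HER2 WT and squares HER2 L755S. EGR1, FOS, JUNB, JUN, IER2 and DUSP1 have both filled symbols to the right of both open ones, whereas those of BTG1 and MCL1 lie close together.

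The first comparison separated the replicate number from the line. A large set of the early genes was lower in both number 2 libraries than in both number 1 libraries. The AP-1 genes FOS, FOSB, JUN, JUNB and JUND, the transcription factors EGR1, NR4A1 and KLF2, and IER2, the phosphatases DUSP1 and DUSP2, the mRNA decay factor ZFP36 and the growth inhibitor BTG2 were lower, by 1.81-fold (ZFP36) to 10.8-fold (EGR1). No gene of the list was called higher by the test that follows. With edgeR's quasi-likelihood test, a term for the line and Benjamini-Hochberg adjustment over 16538 genes, 13 of 30 tested genes (43.3%) were thus called lower at an adjusted p under 0.05. Of all tested genes 9.8% were called lower and 8.1% higher, 17.9% together. DESeq2 called 11 of them lower, without JUND (adjusted p = 0.155) and without FOSB, which it gave no adjusted p, and none higher. At an unadjusted p under 0.05, 15 list genes were lower and 0 higher, against 5501 of 16538 tested genes in either direction. In bulk RNA, fewer cells expressing a gene and less RNA per cell cannot be told apart. The fit had 1 residual degree of freedom, its spread being shared over all genes. It takes a number to stand for the same thing in both lines, which is not established. Without a term for the line no gene passed. At an unadjusted p under 0.05 there were then 13 list genes, against 2796 of 16538 tested genes. Fits with 1 library left out are given in the last section.

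Among the AP-1 genes, FOS, the founding partner of JUN, stood at 108 and 52.5 CPM in number 1, against 12.9 and 11.6 CPM in number 2. Both number 2 libraries were far below both number 1 libraries, and close to each other. Its fitted log2 difference, number 2 minus number 1, was -2.63 (SE 0.23; edgeR, Benjamini-Hochberg adjusted p = 2.65e-05). FOSB, a low-level relative of FOS, was at 5.16 and 4.13 CPM in number 1 and at 1.07 and 1.64 CPM in number 2 (log2 difference -1.80, SE 0.39; edgeR adjusted p = 0.00808). FOSL2, which makes a FOS-like protein, was at 28.1 and 36.9 CPM in number 1 and at 29.5 and 19.8 CPM in number 2, so its groups overlapped (edgeR adjusted p = 0.223). All 3 JUN genes separated by number. JUN was at 144 and 120 CPM in number 1 and at 26.5 and 38.3 CPM in number 2 (log2 difference -2.04, SE 0.22; edgeR adjusted p = 8.84e-05). JUNB was at 114 and 141 CPM in number 1 and at 16.3 and 42.7 CPM in number 2 (-2.26, SE 0.24; edgeR adjusted p = 8.84e-05). JUND, usually the steadiest of the JUN genes in growing cells, was at 92.1 and 58.5 CPM in number 1 and at 18.9 and 36.6 CPM in number 2 (-1.48, SE 0.29; edgeR adjusted p = 0.00463). Its difference was uneven between the lines, -2.29 in HER2 WT and -0.68 in HER2 L755S on the log2 CPM scale. The stress-response repressor ATF3 and the small MAF protein gene MAFF, which pair with AP-1 proteins, showed no such separation. ATF3 was at 8.0 and 8.13 CPM in number 1 and at 5.47 and 12.6 CPM in number 2. MAFF stayed between 6.12 and 7.86 CPM.

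EGR1, a zinc finger factor and direct SRF target, had the largest difference on the list. It stood at 98.6 and 243 CPM in number 1 and at 5.64 and 34.7 CPM in number 2, a fitted log2 difference of -3.43 (SE 0.27; edgeR, Benjamini-Hochberg adjusted p = 8.15e-06). HER2 L755S was above HER2 WT in both numbers, but even HER2 L755S 2 was below HER2 WT 1. Its relatives did not pass. EGR2 was low, at 0.617 and 0.957 CPM in number 1 and at 0.138 and 0.311 CPM in number 2 (edgeR adjusted p = 0.0753), and EGR3 was at 12.7 and 8.34 CPM against 10.7 and 8.10 CPM. NR4A1, an orphan nuclear receptor, was at 15.0 and 22.4 CPM in number 1 and at 3.89 and 9.54 CPM in number 2 (-1.58, SE 0.25; edgeR adjusted p = 0.0016). The related NR4A2 was at 2.27 to 3.66 CPM and NR4A3 at 0.172 to 0.545 CPM, and in both the number groups overlapped. Among the Krüppel-like factors only KLF2 passed. KLF2 was at 12.2 and 6.46 CPM in number 1 and at 1.72 and 2.69 CPM in number 2 (-2.04, SE 0.37; edgeR adjusted p = 0.00338). KLF4 was at 7.5 and 8.68 CPM against 4.40 and 4.83 CPM, without overlap, and missed the threshold (edgeR adjusted p = 0.054, and 0.0422 without TMM scaling). The more abundant KLF6 was at 128 and 76.5 CPM in number 1 and at 94.8 and 62.1 CPM in number 2, and KLF10 at 21.6 and 14.4 against 24.0 and 15.5 CPM. In both, the lines were further apart than the numbers.

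IER2 was at 151 and 180 CPM in number 1 and at 28.5 and 58.1 CPM in number 2 (log2 difference -2.02, SE 0.22; edgeR, Benjamini-Hochberg adjusted p = 8.84e-05). IER3, a survival gene, was at 20.5 and 15.5 against 14.5 and 13.2 CPM, and IER5 at 24.3 and 9.46 against 18.0 and 11 CPM. Neither of these IER genes passed. Of the feedback genes, DUSP1, a phosphatase that inactivates MAP kinases, gave the cleanest separation. It was at 54.1 and 48.3 CPM in number 1 and at 12.9 and 14.1 CPM in number 2 (-1.92, SE 0.20; edgeR adjusted p = 8.57e-05), and the number accounted for 99.4% of its sum of squares over the 4 libraries on the log2 CPM scale. DUSP2, a nuclear MAP kinase phosphatase, was at 62.6 and 54.8 against 34 and 29.3 CPM (-0.89, SE 0.19; edgeR adjusted p = 0.00695). ZFP36, which binds AU-rich elements of early mRNAs and promotes their decay, was at 22.0 and 33.1 CPM in number 1 and at 9.98 and 22.0 CPM in number 2 (-0.86, SE 0.21; edgeR adjusted p = 0.0137). The 2 middle ZFP36 libraries were almost level, and line and number each took about the same share of its spread (47.5% and 47.7%). Its relative ZFP36L1 was at 5.99 to 8.64 CPM with no separation by number. BTG2, an inhibitor of proliferation, was at 62.9 and 66.1 against 35.7 and 32.5 CPM (-0.92, SE 0.19; edgeR adjusted p = 0.0061). The related BTG1 was at 52.6 and 47.8 against 45.0 and 55.2 CPM, with groups that overlapped. The nuclear protein gene CSRNP1 was at 5.81 to 7.78 CPM. MCL1 was at 123 and 127 against 133 and 153 CPM, slightly higher in number 2 without passing (edgeR adjusted p = 0.503). SRF itself, the factor that acts on many of these promoters, was at 40.2 and 49.3 CPM in number 1 and at 31.6 and 36.9 CPM in number 2 (edgeR adjusted p = 0.164).

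Within each line separately, 1 library stood against 1, hence no test. Of 30 genes 20 were lower in number 2 in both lines, against 37.8% of all tested genes. A further 3 were higher in both and 7 went opposite ways, for which the shares of all tested genes were not counted. A difference of over 2-fold in both lines was found in 10 of 30 (33.3%), against 2.29% of all tested genes. The number 2 values lay below the number 1 values without overlap in 17 of 30 (56.7%), against 26.3% of all tested genes, and above them in 2 of 30, against 24.2%. The log2 difference of EGR1 was -4.12 within HER2 WT cells and -2.81 within HER2 L755S cells, and that of FOS was -3.07 and -2.17. Of the 13 called genes 11 differed more between the numbers in HER2 WT than in HER2 L755S, which was not tested. The scatter of the within-line differences shows these 11 above its diagonal, and DUSP2 and BTG2 below it. The share of all tested genes that did so was not counted. Their median log2 difference was 0.0031 within HER2 WT and -0.059 within HER2 L755S. The replicate number took a median of 65.7% of the sum of squares of a list gene, against 45.6% over all tested genes, and over 50% in 18 of 30 (60%), against 46.9% of all tested genes.

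**Figure D2:**
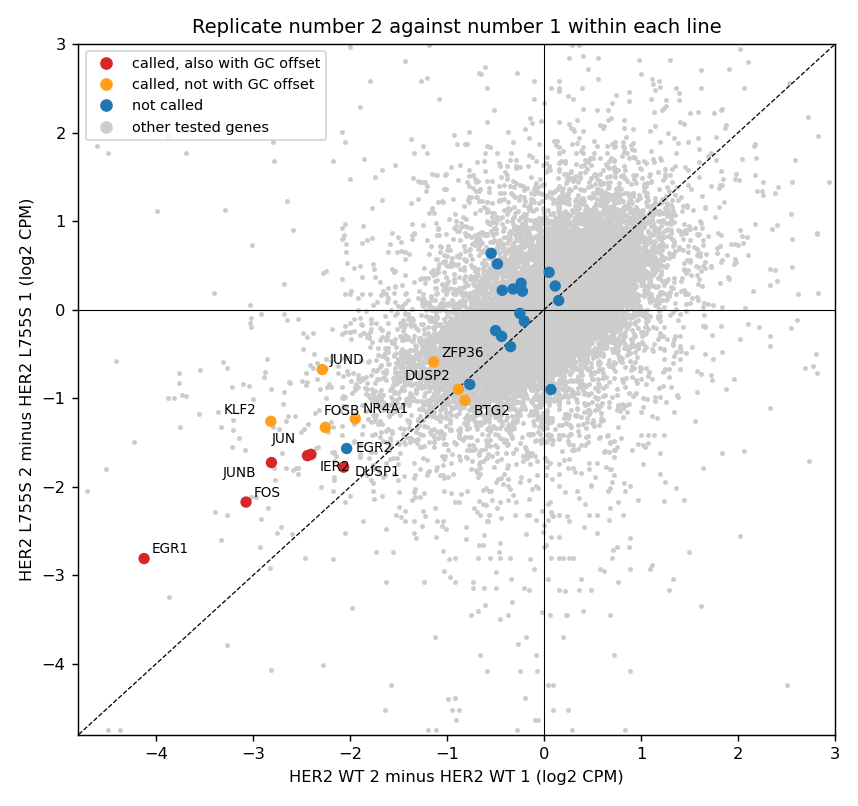
Difference of number 2 from number 1 within HER2 WT (x axis) and within HER2 L755S (y axis), in log2 CPM, for the tested list genes (large points) and the other tested genes (grey; a few lie beyond the axes). The dashed line marks equal differences. The 13 called genes all lie below 0 on both axes, with EGR1 at -4.12 and -2.81.

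The number difference also ran with base composition over all genes. The median log2 difference of tested genes went from 0.58 in the tenth with the lowest transcript GC content to -0.78 in the tenth with the highest, from 0.54 to -0.93 within HER2 WT and from 0.61 to -0.63 within HER2 L755S. The list genes had a median GC content of 56.0%, above the 49.7% of all tested genes. An offset that removes each library's trend on GC content, added after the data were seen, left 60 of 16538 genes called (0.363%), of which 30 were lower (0.181%). Among the 30 list genes 6 were still called lower (20%) and 0 higher. At an unadjusted p under 0.05, 13 were lower and 1 (CSRNP1) higher, against 1701 of 16538 tested genes in either direction. These 13 are not the same as the 13 called without the offset. They include KLF6, EGR2 and BTG1, but not JUND, ZFP36 and DUSP2. EGR1 had a log2 difference of -3.13 (SE 0.29; edgeR, Benjamini-Hochberg adjusted p = 0.000874), FOS of -2.20 (SE 0.23; adjusted p = 0.00188) and DUSP1 of -1.65 (SE 0.18; adjusted p = 0.00308). JUN had -1.69 (SE 0.22; edgeR adjusted p = 0.00654), JUNB -1.45 (SE 0.20; adjusted p = 0.0114) and IER2 -1.33 (SE 0.19; adjusted p = 0.0119). These 6 stand well below the median line in the plot against GC content. The other 7 lost their call with the offset. In FOSB, KLF2, NR4A1 and BTG2 the log2 differences were -1.38, -1.15, -1.02 and -0.82 (edgeR adjusted p = 0.238, 0.254, 0.128 and 0.08). In JUND, ZFP36 and DUSP2 they shrank to -0.40, -0.36 and -0.20 (edgeR adjusted p = 0.584, 0.567 and 0.758). With the offset, 7 of 30 genes differed by over 2-fold in both lines, against 0.865% of all tested genes. With mitochondrial genes left out instead, 13 list genes were called lower.

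**Figure D3:**
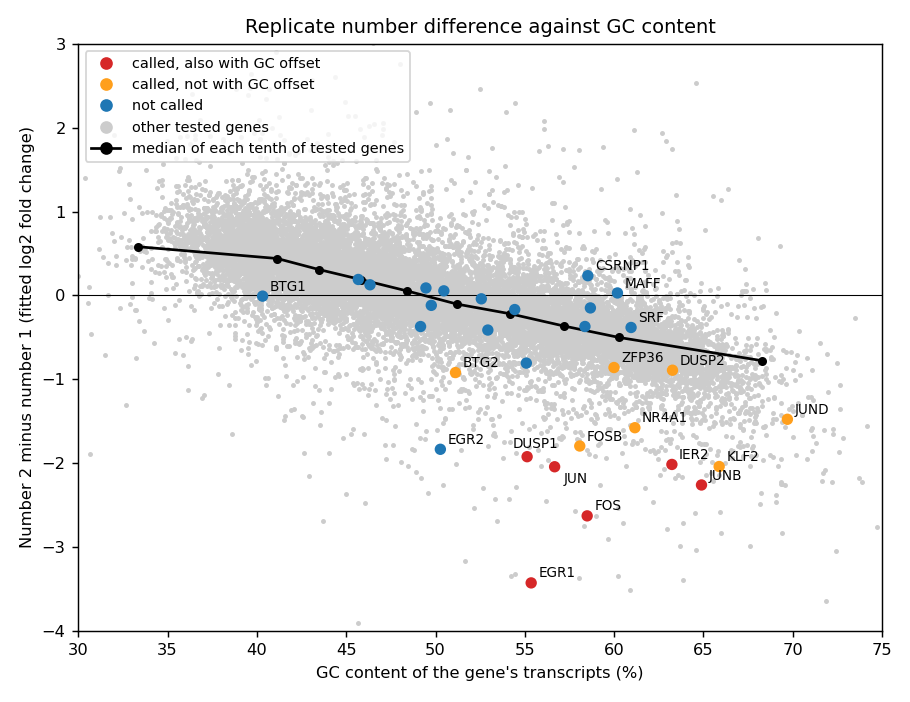
Fitted log2 difference of number 2 from number 1 (y axis) against the GC content of a gene's transcripts in percent (x axis). Grey points are tested genes, the black line joins the medians of 10 bins of equal gene number, and coloured points are the tested list genes. The medians run from 0.58 to -0.78, and EGR1, FOS, JUN, JUNB, IER2 and DUSP1 (red) lie below them.

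The abundance-weighted transcript length was the same in all 4 libraries for EGR1 (3138 bases), JUN (3540 bases), JUNB (1820 bases) and DUSP1 (2019 bases). For JUN and JUNB it is the full span of the gene. How many forms of these genes are annotated was not examined, so a constant length may follow from the annotation alone. For FOS it was 1621.17 and 1711.08 bases in number 1 and 1413.59 and 1360.58 bases in number 2, so the shorter annotated forms carried more of the estimate where FOS was low. NR4A1 went the same way, from 2422.13 and 2706.52 to 2102.98 and 2117.23 bases. JUND was at 1424.13 and 1662 bases in number 1 and at 1863 and 1689.92 bases in number 2, the other way, and FOSB ran from 2657.92 to 3747.03 bases with numbers that overlapped. The median difference between length and effective length, a measure of fragment size, ran only from 217.6 to 224.55 bases. Exons of JUNB, EGR3, NR4A1, IER2, IER3, BTG1 and CSRNP1 overlap those of a gene on the other strand, and no source used here names the strand setting of the counting, so the reads of such partners cannot be told apart. EGR1 lies at chromosome 5, 138465490 to 138469315, FOS at chromosome 14, 75278774 to 75282230, and JUN at chromosome 1, 58780788 to 58784327 (GENCODE 29, GRCh38).

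The second comparison asked how the early genes differed between HER2 L755S and HER2 WT cells. No list gene passed the threshold when the number was left out of the model, and values went both ways. EGR1, NR4A1, NR4A3, ZFP36 and JUNB had higher values in HER2 L755S in both numbers, and FOS, IER5, KLF6 and KLF10 lower ones. With edgeR and Benjamini-Hochberg adjustment, 0 of 30 genes were called, against 0.738% of all tested genes called higher and 0.949% called lower, 1.69% together. At an unadjusted p under 0.05 there was 1, IER5, against 1742 of 16538 tested genes, and DESeq2 called 0. The fit has no term for the number, so the number difference of the genes above enters its spread. With the number as a block, EGR1, JUNB, NR4A1 and ZFP36 were called higher and KLF6 and IER5 lower. More of all tested genes were then called too (values in the last section). That fit is the same model as in the number comparison above. The pairing by number, which both take, is not established.

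EGR1 was 2.47-fold higher in HER2 L755S cells in number 1 and 6.13-fold higher in number 2, a fitted log2 difference of 1.41 with an SE of 1.01 (edgeR, Benjamini-Hochberg adjusted p = 0.832). Fitted with 1 library left out, its log2 difference was 4.62 without HER2 WT 1 and 2.21 without HER2 L755S 2. Without HER2 WT 1, those of JUNB, NR4A1 and IER2 were 2.50, 2.04 and 2.07. That of FOS was -2.38 without HER2 L755S 1 and -1.76 without HER2 WT 2. Other omissions turned the direction. Without HER2 L755S 1 the differences of EGR1, JUNB and IER2 were -0.59, -0.61 and -0.62, without HER2 WT 2 those of JUNB and IER2 were -0.31 and -0.34, and without HER2 WT 1 that of FOS was 1.32. Each of these fits leaves 1 line with 1 library of 1 number, whose spread is taken from the other line. None has a term for the number, so the number difference enters these line differences. NR4A1 was 1.49-fold and 2.45-fold higher in HER2 L755S in numbers 1 and 2, and ZFP36 was 1.5-fold and 2.20-fold higher (edgeR adjusted p = 0.864 and 0.634). The FOS difference was -1.04 in number 1 but -0.14 in number 2 on the log2 CPM scale, so it came almost wholly from the number 1 libraries. In ATF3 the pattern was the reverse, 0.02 in number 1 and 1.21 in number 2. IER5, a target of heat shock factor and of growth signals, was at 24.3 and 18.0 CPM in the HER2 WT libraries and at 9.46 and 11 CPM in the HER2 L755S libraries (-1.05, SE 0.35; edgeR adjusted p = 0.222). With the GC content offset IER5 was called lower (-1.02, edgeR adjusted p = 0.0383), as were 3.75% of all tested genes. KLF6, a widely expressed zinc finger factor, was lower by a similar amount in both numbers, -0.75 and -0.61, and so was KLF10, -0.59 and -0.63, a target of TGF-beta signalling, with neither called (edgeR adjusted p = 0.501 and 0.638).

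Within the numbers, 12 of 30 genes were higher in HER2 L755S in both, 8 lower in both and 10 opposite, which leaves 20 (66.7%) with 1 sign, against 65.5% of all tested genes. The lines did not overlap in 3 genes that were higher in HER2 L755S (10%, against 16.9% of all tested genes), ATF3, NR4A2 and NR4A3. They did not overlap in 5 that were lower (16.7%, against 19.3%), EGR3, KLF6, KLF10, IER5 and ZFP36L1. These shares were close to or below those of all genes. In 24 of 30 genes the line difference was higher in number 2 than in number 1, with list medians of 0.26 and -0.15 against 0.0030 and 0.011 over all tested genes. The share of all tested genes was not counted. It is the same contrast as the larger number difference of the called genes in HER2 WT given above, and no separate result. JUND had the widest change of direction, -0.66 in number 1 and 0.96 in number 2, followed by KLF2 with -0.92 and 0.64. With 1 library in each cell of this layout the difference between the numbers could not be tested.

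**Figure D4:**
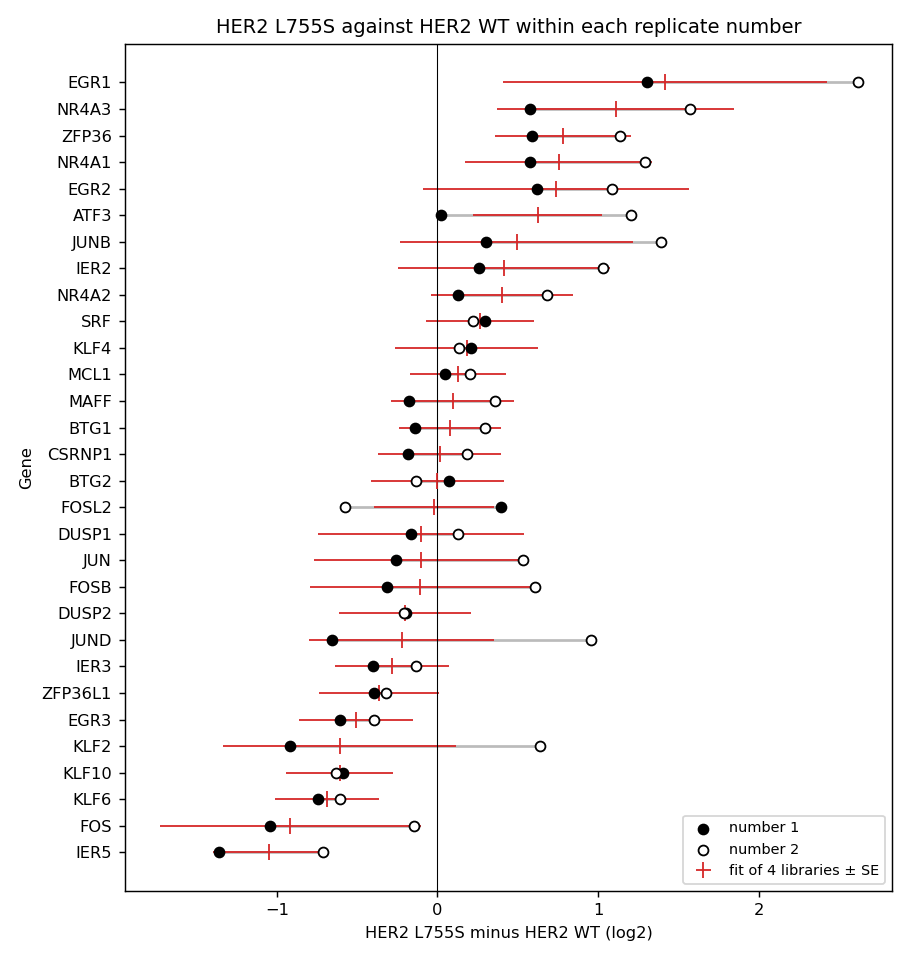
Difference of HER2 L755S from HER2 WT in log2 CPM within number 1 (filled) and number 2 (open) for the 30 tested genes, with the fitted log2 difference of all 4 libraries (red tick, bar of 1 SE). EGR1 lies at 1.30 and 2.62 and IER5 at -1.36 and -0.71, while 10 genes have points on both sides of 0.

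Genes around the early response were counted in the number comparison from 6 fixed lists, also chosen with earlier results of these data known. Unless a share is given beside it, each count below is read against 9.8% of all tested genes called lower and 8.1% called higher. Of 54 other tested early response genes 12 were called lower and 3 higher (median log2 difference -0.21, against -0.03 for all tested genes). The 4 with the lowest adjusted p were IER5L at -1.94, ID3 at -1.37, ID1 at -1.42 and CITED2 at -1.07 (edgeR, Benjamini-Hochberg adjusted p = 0.000839, 0.000868, 0.00199 and 0.00292). ID1 and ID3 encode inhibitors of helix-loop-helix factors, and CITED2 a binding partner of CREB-binding protein. With the GC content offset CITED2 was the 1 gene of these 54 still called (-1.01, edgeR adjusted p = 0.0288), against 0.363% of all tested genes. In the line comparison KLF9, a hormone-responsive Krüppel-like factor, was the 1 gene of the 54 called, a share near the 1.69% of all tested genes. It was at 1.05 and 10.3 CPM in number 1 and at 2.51 and 15.5 CPM in number 2 (log2 difference 2.86, edgeR adjusted p = 0.0158).

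Another list held 20 tested bZIP genes, many of whose proteins can pair with FOS, JUN or small MAF proteins. In number 2, 5 of them were called lower and 1 higher, with MAFK at -1.04 (edgeR, Benjamini-Hochberg adjusted p = 0.00726) below and ATF2 at 0.67 above (adjusted p = 0.0244). Of 15 genes for SRF, its partners, CREB and related factors 3 were higher and 0 lower. SRF itself is also 1 of the 32 genes above. The 3 were MKL2, a coactivator of SRF, at 0.86, CREB1 at 0.72 and ATF1 at 0.60 (edgeR adjusted p = 0.00831, 0.0181 and 0.0483). With 9.8% of all tested genes called lower, 0 of 15 is near the background. The median GC content of these 15 was 49.2%. Of 20 genes listed for mRNA decay 6 were higher, among them TIA1 (0.94) and the exonuclease gene XRN1 (0.83; edgeR adjusted p = 0.0055 and 0.0127). The 1 lower gene of that list, BRF1 (-0.59), is the symbol of a subunit of an RNA polymerase III factor, which is not a decay factor. Of 21 heat shock and handling stress genes 6 were lower and 2 higher, with HSPA1B at -0.93 (edgeR adjusted p = 0.00728) and HSPA1A at -0.73 (adjusted p = 0.0261). Of 15 tested late AP-1 targets 1 was lower, the chromatin protein gene HMGA1 (-0.63, edgeR adjusted p = 0.0294), also near the background share. With the GC content offset no gene of these 5 lists was called in either direction.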

How the data were processed

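The deposited tables are RSEM gene results, per the file headers, and the authors' expected count, an estimate of reads per gene, need not be whole. Deposited TPM values and lengths, also RSEM's per the file headers, served for levels and transcript form. STAR, edgeR and GRCh38 are named without versions in the submitters' processing notes. No source used here gives the annotation release, or says what was merged in the tables of number 2, whose names carry that word.

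Expected counts were rounded. Of 60675 genes, 16538 passed filterByExpr of edgeR by line. After TMM scaling (factors 0.937 to 1.04), edgeR 4.0.16 (glmQLFit and glmQLFTest, two-sided, R 4.3.3) compared the lines with no other term, and the numbers with a term for the line. Benjamini-Hochberg adjustment ran over all tested genes, with a threshold of 0.05. CPM use TMM-scaled totals. Differences within a line or number, and sums of squares, use log2 CPM with a prior count of 0.5. DESeq2 1.42.0, other scaling, filters, the replicate number as a block and leaving out libraries were alternatives, and an offset for GC content of GENCODE 29 transcripts was added after the data were seen. The test was tried on simulated counts. All 32 genes are named, with every library value for called genes and the leading genes of each role group, and up to 4 called genes of each other list. The genes and lists were chosen with earlier results of these data known.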

Additional observations from a re-analysis of the deposited data

Results flagged for a closer look

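Some genes differed in opposite directions in the 2 arms of a contrast, with 1 library against 1 in each arm, so that none of these differences could be tested. The difference of HER2 L755S from HER2 WT had opposite signs in the replicate numbers for 10 of 30 tested genes. That is about the share of all tested genes, 5699 of 16538. Given as the difference in number 2 less that in number 1, in log2 CPM, the gaps were 1.61 for JUND, 1.56 for KLF2, 0.93 for FOSB, 0.79 for JUN, 0.54 for MAFF, 0.43 for BTG1, 0.37 for CSRNP1 and 0.29 for DUSP1. They were -0.97 for FOSL2 and -0.21 for BTG2.

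The difference of number 2 from number 1 had opposite signs in the lines for 7 genes, and the share over all tested genes was not counted. Given as the difference in HER2 L755S less that in HER2 WT, in log2 CPM, the gaps were 1.18 for ATF3, 1.00 for NR4A3, 0.65 for IER5, 0.55 for NR4A2, 0.54 for MAFF and 0.43 for BTG1, and -0.97 for FOSL2. NR4A3 was at most 0.545 CPM in any library.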

How the results depend on the processing

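The 13 list genes lower in number 2 were also 13 with DESeq2 size factors, with no filter, with at least 50 counts in 2 libraries and without mitochondrial genes, 14 without scaling, 11 with DESeq2 and 12 at an adjusted p of 0.01. They were 6 with the GC content offset and 0 with no term for the line, as with each library left out of that fit. Over all genes, the numbers of genes higher and lower in number 2 (1339 and 1621) became 302 and 468 at 0.01, 711 and 936 with no filter, 816 and 799 without mitochondrial genes, 30 and 30 with the GC content offset, and 0 and 0 with no term for the line, also with each library left out. Without scaling 835 were higher and 1934 lower. Between the lines, the 122 higher and 157 lower genes became 49 and 49 at 0.01, 276 and 309 with DESeq2, 328 and 429 with no filter, and 425 and 620 with the GC content offset. Leaving out 1 library gave 165 to 219 higher and 176 to 339 lower. With no filter 1 list gene (EGR1, adjusted p = 0.00468) was called higher, with the GC content offset 1 lower, and with 1 library left out 0 to 4 higher and 0 to 1 lower. A stricter threshold lowers counts by construction, and the cause of the other shifts was not tested.

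With the replicate number as a block, 719 genes were higher and 1009 lower in HER2 L755S, and 4 list genes were higher (EGR1 1.91, JUNB 0.83, NR4A1 0.91 and ZFP36 0.86; edgeR adjusted p = 0.000123, 0.03, 0.0231 and 0.0149) and 2 lower (KLF6 -0.68 and IER5 -1.04; adjusted p = 0.025 and 0.00657). With the block and the GC content offset together these were 695, 1012, 4 and 2. Deviations from the line means correlated with r = 0.649 between libraries of the same number over 11471 genes. With 2 pairs and no statement of what a number means, the pairing is not established. The number comparison rests on the same model and the same pairing. The block turned the line differences of FOSB (0.090), JUN (0.13) and JUND (0.13), and with the offset they were 0.11, 0.13 and 0.094.

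Other signs that turned belonged to small differences. Between the lines they were JUND 0.031 and BTG1 -0.028 with the GC content offset, BTG2 0.015 with DESeq2 and with its size factors, 0.0069 with no filter and 0.0055 without mitochondrial genes, and CSRNP1 -0.065 without scaling and -0.0047 with at least 50 counts. Between the numbers they were ATF3 -0.027 and MAFF -0.051 without scaling, BTG1 0.013 with DESeq2 and with its size factors and 0.024 without mitochondrial genes, and, with the GC content offset, EGR3 0.29, NR4A2 0.13, KLF10 -0.061, IER3 0.055, ZFP36L1 0.073, SRF 0.16 and MCL1 -0.035.

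With 1 library left out, the line difference ranged from -2.38 to 1.32 in FOS, -0.93 to 1.43 in FOSB, -0.54 to 0.34 in FOSL2, -1.15 to 1.58 in JUN, -0.61 to 2.50 in JUNB, -0.94 to 1.33 in JUND, -0.078 to 0.24 in MAFF, -0.59 to 4.62 in EGR1, -0.29 to 2.18 in EGR2, -1.41 to 1.41 in KLF2, -0.30 to 0.62 in KLF4, -0.62 to 2.07 in IER2, -1.25 to 1.28 in DUSP1, -0.72 to 0.31 in DUSP2, -0.045 to 0.19 in BTG1, -0.60 to 0.46 in BTG2, -0.23 to 0.21 in CSRNP1 and -0.026 to 0.26 in MCL1. The number difference ranged from -0.55 to 0.70 in ATF3, -0.15 to 0.26 in MAFF, -0.44 to 0.17 in EGR3, -0.38 to 0.35 in NR4A2, -0.83 to 0.86 in NR4A3, -0.71 to 0.035 in KLF6, -0.17 to 0.45 in KLF10, -0.74 to 0.62 in IER5, -0.36 to 0.041 in ZFP36L1 and -0.15 to 0.19 in BTG1. With a library left out, each of these fits had 1 term only, so line and number differences enter each other. Low counts limit EGR2, NR4A3, FOSL1 and EGR4.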
